A study of Mus musculus with 12 samples.

Results

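Hearts of mice lacking mENT1, the equilibrative nucleoside transporter 1 encoded by Slc29a1, were compared with wild type hearts. The comparison holds 6 of the 12 arrays of the series: 3 knockout hearts and 3 wild type hearts, chosen by the titles of the samples and lettered a, b and c in each genotype. The other 6 arrays hold kidneys of the same design. Total RNA of each heart was labelled with Cy3 and hybridised to 1 Agilent mouse array of 60-base probes. Knockout hearts came from mice labelled mENT1 knockout and wild type hearts from wild type mice, both with FVB/N as the genetic background, and no treatment is given for any of them. The construction of the knockout allele, the cells it reaches, and the age and sex of the mice are not given in the sources used here.

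mENT1 is a membrane protein that lets adenosine and other nucleosides move along their concentration gradient, in either direction. In heart it clears adenosine from the space around cells, where adenosine acts on receptors that slow the heartbeat, widen coronary vessels and dampen inflammation. It is the target of the vasodilator dipyridamole and is abundant in cardiac muscle and endothelium.

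Levels below are log2 signals relative to the 75th percentile of the spots of an array, so 0 is a fairly bright probe and each unit is a doubling of signal. A change is the mean of the knockouts less that of the wild types, given with its limma standard error (SE) over 3 arrays against 3. A gene was called when its Benjamini-Hochberg adjusted p in limma was under 0.05. A signal is above background when the scanner software marked the spot as well above it. All directions follow the names of the scanner files and oppose the column names of the deposited value table: each heart column of that table correlated at 0.99987 or above with the array of the same letter and the other genotype. The smallest two-sided p of an exact permutation test of 3 against 3 is 0.1, and tests of single genes therefore come from limma.

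The tissue of the 6 arrays matched its label. Myh6, the main myosin heavy chain of the adult mouse heart, stood at 6.26, 6.68 and 6.72 on the knockouts a, b and c and at 6.72, 6.38 and 6.99 on the wild types a, b and c, and its probe was saturated on all 6 arrays. Tnnt2, cardiac troponin T, stood at 6.04, 6.45 and 6.40 in the knockouts and at 6.56, 6.24 and 6.73 in the wild types, also saturated. Between heart arrays the intensity at the 75th percentile ranged from 577 to 940, 64.5% to 70.8% of the spots were well above background, and 236 to 331 spots were saturated. All knockout hearts lay on 1 slide and all wild type hearts on another, so slide, scan and genotype cannot be told apart in any result here.

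The 3 knockout hearts did not resemble each other closely. Across the tested genes knockout heart c correlated at 0.982 to 0.986 with the wild types but at 0.967 and 0.964 with knockout hearts a and b, which correlated with each other at 0.979. Xist, the RNA that coats the inactive X chromosome, was at 1.61 and 1.56 on knockout hearts a and b and at -8.37 or below on the other 4 hearts. The 4 Y-linked genes tested were above background on those 4 hearts and on neither a nor b. By these genes knockout hearts a and b read as female, and knockout heart c and the wild types as male. Sex was thus not balanced between the genotypes, and its part in the changes was not tested. Results below are therefore given array by array or with the change on knockout heart c alone, which is c minus the mean of the 3 wild types; in its limma fit the spread of the lone knockout is taken to equal that of the wild types.

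Sequences are shown for the genes whose signals carried the comparison. The first set holds the array probes of an MHC class II pair, of a lipoprotein component and of a calcium sensor near Slc29a1, and of albumin, because the values below are the signal of these 60 bases only. They are given as deposited, with the position in build mm7, on the strand printed on the array.

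H2-Eb1 (A_51_P393226, chr17:32392430-32392891, a span longer than the probe): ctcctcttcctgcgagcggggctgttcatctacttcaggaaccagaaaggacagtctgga

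H2-Ea (A_51_P222741, chr17:32421735-32421794): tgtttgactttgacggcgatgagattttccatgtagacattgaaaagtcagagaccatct

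Apom (A_52_P150236, chr17:33227251-33227310): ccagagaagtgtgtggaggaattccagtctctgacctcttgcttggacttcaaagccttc

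Guca1a (A_51_P207751, chr17:45532108-45532167): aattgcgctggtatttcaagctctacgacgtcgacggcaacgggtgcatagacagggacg

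Alb (A_51_P160713, chr5:90443687-90443746): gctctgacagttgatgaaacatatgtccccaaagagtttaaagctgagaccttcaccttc

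The second set holds the 250 bases before the start of 2 called liver genes and the 2 called heat shock genes, from RefSeq on build GRCm38.p6. Capitals mark GTTAAT, a core of the site of the liver factor HNF1, in the first pair, and GAANNTTC, a core of the site of heat shock factor 1, in the second pair. The same stretch of Apoa2, another called liver gene, held no GTTAAT and is not printed. The first pair therefore does not stand for all called liver genes.

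Alb (chr5:90460620-90460869, plus strand): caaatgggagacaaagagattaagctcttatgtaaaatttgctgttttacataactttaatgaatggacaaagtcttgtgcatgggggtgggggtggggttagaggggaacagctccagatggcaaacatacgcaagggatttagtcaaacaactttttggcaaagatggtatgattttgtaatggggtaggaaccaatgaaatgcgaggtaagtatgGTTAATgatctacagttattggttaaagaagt

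Fabp1 (chr6:71199629-71199878, plus strand): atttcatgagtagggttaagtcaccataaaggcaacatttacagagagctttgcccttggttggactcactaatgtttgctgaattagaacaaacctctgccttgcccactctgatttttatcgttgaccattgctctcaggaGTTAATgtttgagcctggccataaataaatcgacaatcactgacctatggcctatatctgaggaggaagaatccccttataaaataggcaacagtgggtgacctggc

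Hspa1a (chr17:34972157-34972406, minus strand): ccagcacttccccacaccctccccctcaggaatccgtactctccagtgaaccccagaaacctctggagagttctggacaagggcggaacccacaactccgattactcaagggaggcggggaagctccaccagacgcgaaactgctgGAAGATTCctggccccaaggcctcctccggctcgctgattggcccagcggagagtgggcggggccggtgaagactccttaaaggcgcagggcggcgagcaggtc

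Dnaja1 (chr4:40722218-40722467, plus strand): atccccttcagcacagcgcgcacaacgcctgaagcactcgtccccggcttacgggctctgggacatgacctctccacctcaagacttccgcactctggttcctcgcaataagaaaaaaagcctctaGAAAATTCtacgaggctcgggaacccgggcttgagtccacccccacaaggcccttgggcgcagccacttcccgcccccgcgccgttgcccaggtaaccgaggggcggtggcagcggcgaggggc

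GTTAAT on either strand was present in 10 of 41 promoters of called liver genes with a RefSeq entry (24.4%) and in 1762 of all 27025 promoters (6.52%). GAANNTTC, which reads the same on both strands, was present in 2 of 2 promoters of called heat shock genes and in 1833 of 27025 (6.78%). These are letter matches, not measured sites, and nothing in the arrays reads binding there.

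Slc29a1 was lower in every knockout heart. Its probe (A_51_P289836, chromosome 17, positions 43714823 to 43714882 of build mm7) gave 1.28, 0.47 and 1.43 on the knockouts a, b and c and 3.05, 3.13 and 3.25 on the wild types. The groups did not overlap, and knockout heart b was lowest. The change was -2.08 ± 0.27 (SE, n = 3 and 3), a signal 4.24-fold lower, with an adjusted p of 0.0381 in limma. The probe stayed above background in all knockouts, and whether it lies in the deleted stretch is not given in the files. With the letters as a block the adjusted p was 0.0684, and with knockout heart c alone the change was -1.71 with an adjusted p of 0.0607. The call also ended without knockout heart a (0.113) and without wild type heart a (0.106), b (0.170) or c (0.200).

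No other carrier or receptor of nucleosides was called. Slc28a2, a sodium-driven transporter of purine nucleosides, stood at 1.23, 1.29 and 1.47 in the knockouts and at 1.64, 1.59 and 1.63 in the wild types, so its groups did not overlap, but the change of -0.29 ± 0.13 had an adjusted p of 0.322. Slc29a2, the nearest relative of Slc29a1, lay between -2.81 and -2.12 in the knockouts and between -2.66 and -1.996 in the wild types. Slc29a3, Slc29a4 and Slc28a3 overlapped between groups as well. Among the receptors Adora2b, which couples to adenylyl cyclase at high adenosine, was at -2.02, -2.55 and -2.64 in the knockouts and at -3.04, -2.83 and -3.10 in the wild types (0.59 ± 0.20, adjusted p of 0.279). It was the only 1 of the 4 receptors without overlap, where 22.6% of all genes tested had none. Adora1, Adora2a and Adora3 overlapped, with adjusted p from 0.308 to 0.564 in limma.

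Enzymes that make, salvage and degrade purines and pyrimidines were split, with 19 of 34 higher and 15 lower and a median change of 0.05. Uox, urate oxidase, was the only 1 called, and it belongs to the liver genes below. The next largest changes, such as Ada (adenosine deaminase), followed knockout hearts a and b: Ada was at 1.36 and 2.14 there, at -0.38 on c and at -0.29, -0.34 and -0.84 in the wild types. Adk, adenosine kinase, lay between 4.47 and 5.03 in the knockouts and between 4.94 and 5.34 in the wild types (-0.42 ± 0.21, adjusted p of 0.344). Of the 19 P2 receptors and ectonucleotidases 15 were lower and none was called, while 4 had an unadjusted p under 0.05. Nt5e, the ectonucleotidase that makes extracellular adenosine, was -0.24, -0.48 and -0.26 in the knockouts against 0.41, 0.17 and -0.15 in the wild types (-0.47 ± 0.18, adjusted p of 0.303).

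Across the 17485 genes tested, limma called 108 (0.618%), of which 92 rose (0.526%) and 16 fell (0.0915%). In mean level 41.5% of all genes were higher and 58.5% lower, with a median change of -0.08. The groups did not overlap for any of the 108 called genes, which the call itself favours (22.6% of all genes tested had no overlap). Without overlap, knockout heart c necessarily lay on the same side of the wild type mean as in the full comparison for all 108. A symbol was known for 77 of the rises and 15 of the falls. With the threshold at 0.10, limma would have called 235 (1.34%), and an unadjusted p under 0.05 was found for 2805 (16%). Many rises were of dim signals: 36 called genes were above background on none of the wild type arrays and 6 on none of the knockout arrays.

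The number of called genes depended on single arrays. It was 45 without knockout heart a, 52 without b and 2087 without c, and 77, 15 and 30 without wild type heart a, b and c. With the letters as a block limma called 59 (0.337%), 34 of them among the 108, and with knockout heart c alone 54 (0.309%), 31 of them among the 108. Of the 43 called genes named by the rule besides Slc29a1, 15 were kept with the block and 13 with knockout heart c alone. Dnah8, Aadac, H2-Eb1, Oas1d, Apom, BC023719, Speer4b, Apof, Krt76, Csta2 and Bhmt2 were kept in both fits. The heart change differed from the kidney change for 39 of the 108, by limma on all 12 arrays at an adjusted p under 0.05, where 112 of 17485 genes tested differed so (0.641%). The 108 were chosen by their heart change, which is part of this difference, so the choice itself raises their share.

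**Figure D1:**
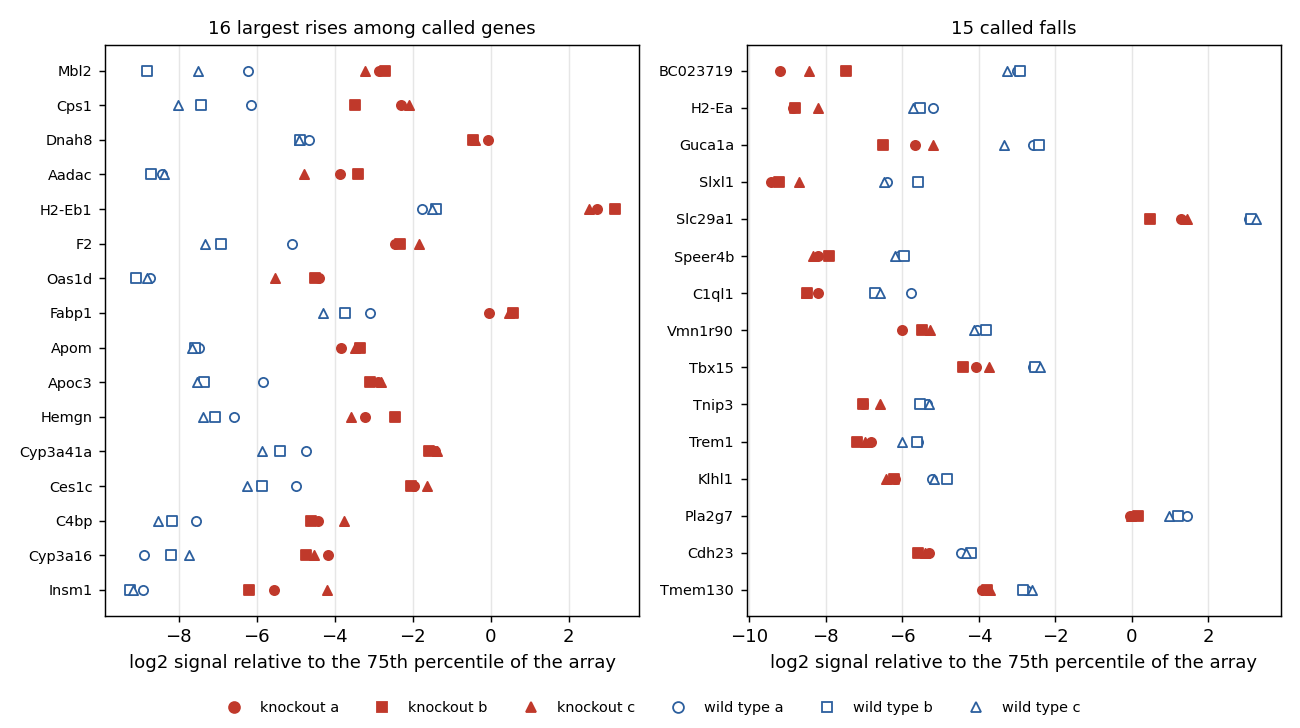
Log2 signal relative to the 75th percentile of the array (horizontal axis) for the 16 largest called rises and the 15 called falls with a symbol; each point is 1 heart, filled for knockout and open for wild type, with the letter as the shape. No gene has a knockout point among its wild type points; Slc29a1 lies between 0.47 and 1.43 in the knockouts and between 3.05 and 3.25 in the wild types.

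Transcripts that are abundant in liver made up 50 of the 108 called genes, and all 50 rose. They were grouped after the calls were seen, so their count is a description. Their median change was 3.13, or 2.53 with the 23 genes dim in all wild types set to their lower bounds, with medians of 2.98, 2.92 and 3.30 above the wild type mean on the knockouts a, b and c. A rise on all 3 knockouts came with the choice, since no called gene had overlapping groups. Of the 50, 34 were highest on c. Among the wild types, heart a was highest for 37 of the 50. Of the 50 genes 16 were still called with the letters as a block and 15 with knockout heart c alone, and 23 were above background on no wild type heart. In bulk tissue, more cells of a type and more RNA per cell cannot be told apart.

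Plasma proteins were the largest role, with 14 genes. Mbl2, the mannose-binding lectin that starts complement, stood at -2.87, -2.70 and -3.22 in the knockouts and was not well above background in the wild types (-6.23, -8.82 and -7.51), at least 13.4-fold higher (adjusted p of 0.0430 in limma). F2, the precursor of thrombin, stood at -2.45, -2.34 and -1.84 against -5.09, -6.91 and -7.33 (4.23 ± 0.58, adjusted p of 0.0445). Alb, serum albumin, stood at 0.21, 0.34 and 1.23 against -2.23, -2.95 and -3.73 (3.56 ± 0.44, adjusted p of 0.0375). For F2 and Alb the lowest knockout lay more than 2 units above the highest wild type, which was heart a; only 1 of 3 wild types was above background for F2. C4bp, an inhibitor of complement, was at least 5.78-fold higher. Ces1c, a carboxylesterase of plasma, was 14.1-fold higher, and Plg, plasminogen, 7.62-fold higher. The block ended the calls of Mbl2 (adjusted p of 0.0793), F2 (0.0964), Alb (0.106), C4bp (0.0514), Ces1c (0.0507) and Plg (0.0566), and no call among the 14 was kept with it.

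Serpinc1 (antithrombin), Proc (protein C), Proz (protein Z), Fgg (fibrinogen gamma), Apoh, Gc (the vitamin D binding protein), Afm (afamin) and Saa4 completed this role and were named after their values were seen. Those with wild type signal rose by 2.25 (Apoh) to 3.50 (Serpinc1, where 2 of 3 wild types were above background), and Afm, Proz and Saa4, dim in all wild types, were at least 5.26-fold, 7.04-fold and 1.59-fold higher. Another probe of Serpinc1 rose by only 0.66. Gc was among the steadiest: -3.27, -2.88 and -2.43 in the knockouts and -5.16, -5.34 and -5.13 in the wild types, with an adjusted p of 0.0154 and of 0.0287 with knockout heart c alone. The wild types were close together for Gc, unlike for F2.

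All 6 called apolipoproteins, the protein parts of lipoprotein particles, rose. Apom, which carries sphingosine 1-phosphate on HDL and is shown above by its probe, stood at -3.84, -3.35 and -3.47 against -7.48, -7.60 and -7.65. The knockouts were close to each other, the wild types were not well above background, and the gene was at least 9.42-fold higher (adjusted p of 0.00112 in limma, 0.0251 with the block and 0.0166 with knockout heart c alone). Apoc3, an inhibitor of lipoprotein lipase, stood at -2.88, -3.09 and -2.82 against -5.84, -7.35 and -7.54 (3.98 ± 0.45, adjusted p of 0.0249, and 0.0527 with the block); both of its probes rose, and 1 of 3 wild types was above background. Apof, found on HDL and LDL, was at least 4.18-fold higher (adjusted p of 0.00196, kept with the block at 0.0253). Apoa2 and Apoc4 rose by 3.14 and 2.91, and Apoa1 was at least 5.80-fold higher.

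All 11 called cytochrome P450 enzymes, which oxidise steroids, fatty acids and drugs, rose. Cyp3a41a stood at -1.43, -1.57 and -1.37 in the knockouts and at -4.73, -5.41 and -5.87 in the wild types (3.88 ± 0.29, adjusted p of 0.00667, and 0.0324 with the block). Cyp3a16 was at least 4.97-fold (adjusted p of 0.00819, and 0.0507 with the block) and Cyp3a44 at least 5.86-fold higher. Cyp3a11 was 5.53-fold higher, with an adjusted p of 0.00255. The Cyp3a genes are near-identical copies whose probes can bind each other's transcripts, so these are not certain to be separate changes. Cyp2d10, Cyp2c23, Cyp4f14 and Cyp2d26 rose by 1.43 to 2.22, while Cyp2c40, Cyp2a12 and Cyp2c29 had no wild type signal well above background and were at least 5.45-fold, 2.06-fold and 4.27-fold higher. Another probe of Cyp2d10 gave 0.06, so its rise rests on 1 probe.

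Enzymes of amino acids, one-carbon units, urea and urate gave 8 rises. Cps1, which makes carbamoyl phosphate for the urea cycle, stood at -2.29, -3.47 and -2.09 against -6.16, -7.42 and -8.01 (4.58 ± 0.56, adjusted p of 0.0361, and 0.0623 with the block), above background on 1 of the wild types. Uox stood at -2.99, -3.38 and -2.06 against -5.67, -6.44 and -6.77 (3.49 ± 0.42, adjusted p of 0.0327, and 0.0852 with the block), again with 1 wild type above background. Bhmt2, a homocysteine methyltransferase, stood at -5.57, -5.30 and -5.66 and was not well above background in the wild types, at least 2.43-fold higher (adjusted p of 0.00196). The knockouts of Bhmt2 lay close together, and its call was kept with the block (0.0253) and with knockout heart c alone (0.0359). Agxt was 7.21-fold higher, and Bhmt, Mat1a, Hpd and Dmgdh, dim in all wild types, were at least 7.62-fold, 6.56-fold, 6.95-fold and 1.47-fold higher.

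Genes of lipid, bile acid, retinoid and glucose handling gave the remaining 11. Fabp1, the liver fatty acid binding protein, stood at -0.05, 0.56 and 0.46 against -3.11, -3.73 and -4.31 (4.04 ± 0.33, adjusted p of 0.00819, and 0.0512 with the block). Aadac, a lipase-like esterase, stood at -3.88, -3.39 and -4.78 against -8.42, -8.72 and -8.38, at least 6.85-fold higher (adjusted p of 0.00755). Knockout heart c was the lowest knockout for Aadac and near the highest for Fabp1. Fbp1, fructose bisphosphatase of gluconeogenesis, stood at -1.66, -1.93 and -1.92 against -4.45, -4.87 and -5.74 (3.19 ± 0.33, adjusted p of 0.0185, and 0.0437 with the block). Of the genes that activate, conjugate and export bile acids, Slc27a5 rose by 2.05, Baat was at least 1.56-fold higher with all wild types dim, and Abcb11 rose by 1.60 with 2 of 3 wild types above background.

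The list of hepatocyte markers holds 28 genes, of which 24 were tested: 20 were higher and 12 were called, with a median change of 2.76. Of all genes tested 0.618% were called. With the letters as a block 1 of the 24 was called, and 0.337% of all genes. Its median above the wild type mean was 2.36, 2.66 and 3.54 on the 3 knockouts and 0.61 on wild type a. All 24 were above background on each knockout, and 22, 18 and 18 on wild type hearts a, b and c. The filter favours this, since a gene dim on any wild type was tested only if above background on all 3 knockouts. The summed linear signal of the list ran from 40.5 to 74.9 times the 75th percentile in the knockouts and from 26.3 to 59.4 in the wild types, so the sums overlapped. Hp, haptoglobin, a bright member that was not called, reached 5.53 on knockout heart a and 4.75 on wild type heart a. Ahsg, Trf, Serpina1b and Ass1, named after their values were seen, went the other way by -0.07 to -0.31 with overlapping groups. The part of liver cells or liver RNA in these rises was not tested.

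**Figure D2:**
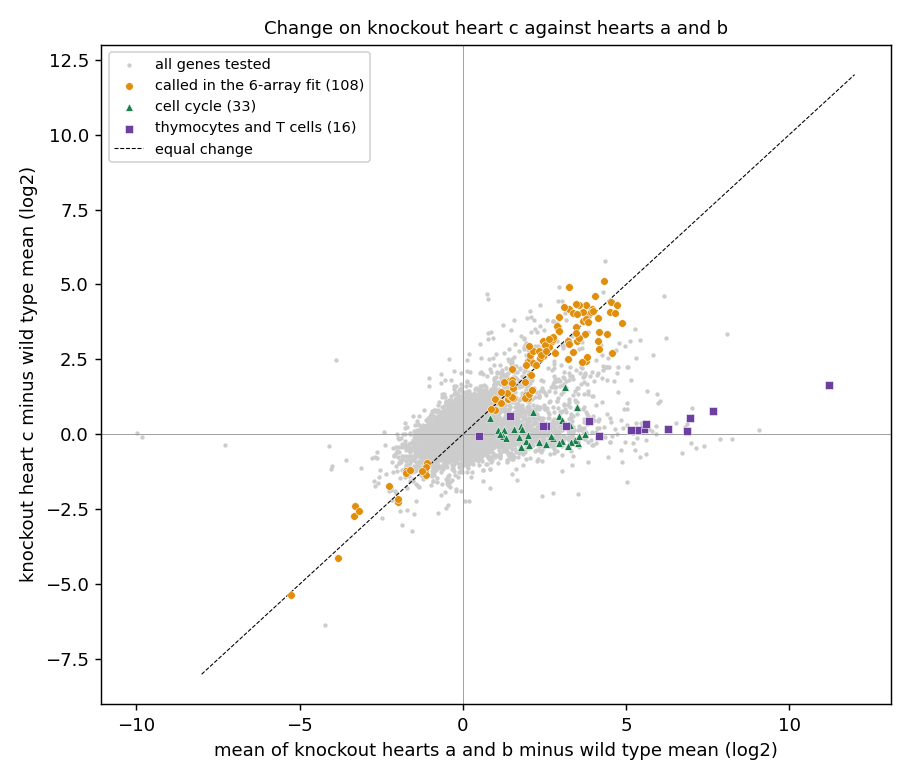
Change on knockout heart c (vertical axis) against the mean change on knockout hearts a and b (horizontal axis), both relative to the wild type mean in log2 units, for the 17485 genes tested. The 108 called genes lie near the dashed line of equal change, which the call itself favours. The 33 cell cycle genes and 16 thymocyte genes lie to the right, most of them near 0 on c, with Kif11 at 1.59 and Dntt at 1.64 there.

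Called genes were more frequent on chromosome 17, which carries Slc29a1. There 14 of 849 genes tested were called (1.65%), against 94 of 16636 elsewhere (0.565%). Of the 14, 13 lay within 15 Mb of the Slc29a1 probe, where 404 genes were tested (3.22%), a window chosen after the positions were seen. These 14 held 7 of the 92 rises and 7 of the 16 falls. Of the 14 calls, 6 were kept with the letters as a block and 5 with knockout heart c alone. Which stretch around Slc29a1 came from the strain of the targeted cells is not given in the sources used here.

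The MHC, the gene cluster of antigen presentation 11.3 Mb from Slc29a1 at these genes, held the most opposed pair. H2-Eb1, the E beta chain of class II, stood at 2.72, 3.19 and 2.51 in the knockouts and at -1.76, -1.41 and -1.51 in the wild types. H2-Ea, the alpha chain that pairs with it, stood at -8.85, -8.80 and -8.22 against -5.21, -5.53 and -5.71. Every knockout thus lay more than 3 units above every wild type for the beta chain and lay below every wild type for the alpha chain, where the knockout signal was not well above background. The change of H2-Eb1 was 4.37 ± 0.21, or 20.6-fold higher (adjusted p of 0.00190, kept with the block at 0.0251 and with knockout heart c alone at 0.0236). H2-Ea was not well above background in the knockouts and at least 2.61-fold lower (adjusted p of 0.00625, kept with the block at 0.0473, and 0.0526 with knockout heart c alone). Each was measured by 1 probe, printed above, so a difference of sequence under the probe and a difference of amount cannot be told apart. In the kidneys, which have their own wild type arrays, the changes were 4.07 and -3.03.

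The other class II genes moved little by comparison. H2-Ab1 was 4.46, 4.79 and 4.08 against 3.93, 3.66 and 3.39 (0.78 ± 0.23, adjusted p of 0.241), and its 4 probes gave 0.78 to 1.12. H2-Aa, its partner, was 1.18, 1.25 and 0.76 against 2.47, 2.19 and 1.78 (-1.08 ± 0.23, adjusted p of 0.129), but another probe gave -0.03. Of the 11 class II genes tested, the pair above included, 9 were higher, with a median of 0.55, and 7 had an unadjusted p under 0.05 (16% of all genes). All knockouts lay above all wild types for 5 and below for 2, where 8.97% and 13.7% of all genes did. Among class I genes H2-Bl was called: 0.90, 0.70 and 1.24 against -0.96, -1.16 and -1.51 (2.16 ± 0.21, adjusted p of 0.0154, and 0.0662 with the block), and its 3 probes gave 2.16 to 4.70. Of 16 class I genes 7 were higher and 9 lower, with a median of -0.18 that became 0.35 when the probes of a gene were averaged. Near-identical class I genes can share signal.

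Outside the MHC genes proper, Dnah8, which encodes an axonemal dynein motor subunit, stood at -0.07, -0.46 and -0.40 against -4.65, -4.88 and -4.91. Both groups were tight, and the change of 4.50 ± 0.16 (22.6-fold higher) had an adjusted p of 0.00112, kept with the block (0.0202) and with knockout heart c alone (0.0166). The other 2 of 3 Dnah8 probes were well above background on none of the 6 hearts and were not tested. BC023719, a transcript of unstated function, stood at -9.20, -7.48 and -8.43 against -2.995, -2.92 and -3.27. It was not well above background in the knockouts and at least 13.98-fold lower (adjusted p of 0.00757), kept with the block (0.0303) and with knockout heart c alone (0.0166).

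The transcript listed as 5430410E06Rik, which has no gene symbol here and was named after its values were seen, stood at -5.36, -5.20 and -5.57 against -1.33, -1.34 and -1.67. It was 15.2-fold lower (adjusted p of 0.00112, kept with the block at 0.0202 and with knockout heart c alone at 0.0236), with tight groups far apart.

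Near Slc29a1 itself, Guca1a, the calcium sensor of photoreceptor guanylate cyclase, stood at -5.68, -6.50 and -5.19 against -2.58, -2.44 and -3.35. It lies 1.82 Mb away and was 7.98-fold lower (adjusted p of 0.0414, and 0.113 with the block). Pla2g7, the plasma enzyme that inactivates platelet activating factor, stood at -0.04, 0.15 and -0.03 against 1.45, 1.19 and 0.97 (-1.18 ± 0.16, adjusted p of 0.0480, and 0.0989 with the block). Trem1, a receptor that amplifies inflammation on myeloid cells, fell by 1.25 (adjusted p of 0.0480, and 0.0959 with the block) with signal above background on 1 of 3 knockouts. The groups were apart for each, and all 4 called genes within 3 Mb of Slc29a1, itself included, fell. Col11a2, a collagen chain of cartilage, and Cyp4f14 rose by 1.72 and 1.73, with adjusted p of 0.0465 and 0.0430 (0.115 and 0.0623 with the block).

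**Figure D3:**
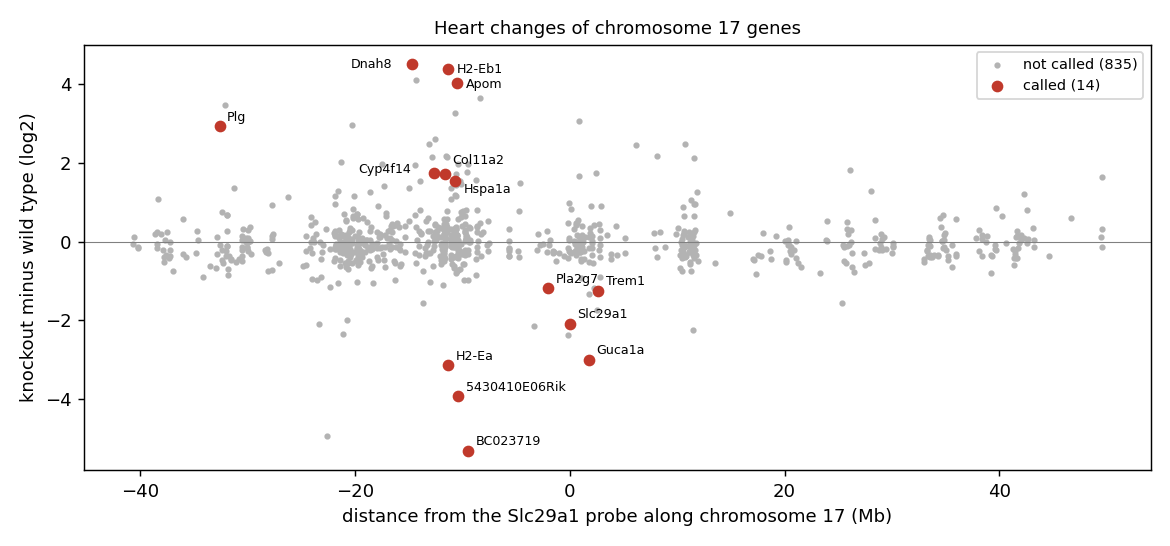
Change of each of the 849 tested chromosome 17 genes (vertical axis, knockout minus wild type, log2) against the distance of its probe from that of Slc29a1 in Mb (horizontal axis). The 14 called genes are named; 13 lie within 15 Mb, and 7 of the 14 are lower.

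Heat shock proteins, the chaperones that refold damaged proteins, gave 2 called rises. Hspa1a, the inducible Hsp70, stood at 1.66, 1.35 and 1.86 against 0.24, -0.06 and 0.06 (1.54 ± 0.18, 2.91-fold, adjusted p of 0.0284). Dnaja1, an Hsp40 partner of Hsp70, stood at 4.43, 4.46 and 4.28 against 3.50, 3.42 and 3.46 (0.93 ± 0.12, 1.91-fold, adjusted p of 0.0407). Knockout heart c was the highest knockout for the first and the lowest for the second, and neither gene had overlap. The block ended both calls (0.0603 and 0.104). All 4 probes of Hspa1a (1.19 to 1.54) and all 3 of Dnaja1 (0.57 to 1.06) rose, and Hspa1b, a near-identical copy, can share the signal of Hspa1a.

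The list of heat shock and unfolded protein genes was mixed: 17 of 28 were higher, with a median of 0.16, and 11 had all knockouts above all wild types (8.97% of all genes did). Dnajb1 stood at 4.38, 4.75 and 4.36 against 3.75, 3.81 and 3.78, and Sdf2l1, of the endoplasmic reticulum, at 1.76, 1.87 and 1.98 against 1.08, 0.77 and 0.84. Neither passed, with adjusted p of 0.130 and 0.0541. The small heat shock proteins of muscle Hspb6, Hspb7 and Hspb8 were lower by 0.54 to 0.76 and were not called. These 5 genes were named after their values were seen.

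Immune and blood genes among the calls were few. Hemgn, a nuclear protein of red cell precursors, stood at -3.24, -2.45 and -3.58 and was not well above background in the wild types (-6.58, -7.07 and -7.37), at least 13.1-fold higher (adjusted p of 0.00935, kept with the block at 0.0347, and 0.0607 with knockout heart c alone). Of 13 erythroid genes tested 9 were higher and 7 had no overlap, where 8.97% of all genes lay above so. Their median above the wild type mean was 0.24, 0.86 and 1.64 on the knockouts a, b and c, so heart c stood highest, but the globin genes Hba-a1 and Hbb-bt, saturated, lay at -0.19 and -0.14.

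The immunoglobulin kappa segments Igkv1-135 and a close relative, parts of antibody light chains, rose. Igkv1-135 stood at -4.55, -4.15 and -5.69 and was not well above background in the wild types, at least 3.99-fold higher (adjusted p of 0.0189, and 0.0514 with the block). The relative rose by 3.33 ± 0.44 (adjusted p of 0.0414, and 0.0661 with the block). Kappa segments are alike in sequence and may share signal. Each of the 10 B and plasma cell genes tested was higher, at medians of 0.997, 0.85 and 0.65 on the knockouts and 0.37, -0.71 and 0.18 on the wild types, and none was called, while 4 had an unadjusted p under 0.05.

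Oas1d, an oligoadenylate synthetase of oocytes, stood at -4.41, -4.50 and -5.53 and was not well above background in the wild types, at least 3.94-fold higher (adjusted p of 0.00755). In the interferon response list 26 of 32 genes lay higher (median change 0.28), 12 of them without overlap against 8.97% of all genes. Medians were 0.22, 0.28 and 0.36 on the knockouts and 0.08, 0.06 and -0.18 on the wild types. None was called, while 10 had an unadjusted p under 0.05. Ifi44 came nearest, at -2.42, -2.42 and -2.07 against -3.52, -3.33 and -3.29 (1.07 ± 0.16, adjusted p of 0.0529).

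Among the remaining rises, Insm1, a zinc finger factor of neuroendocrine cells, stood at -5.56, -6.21 and -4.20 and was at least 2.77-fold higher (adjusted p of 0.0381, 0.0684 with the block and 0.0166 with knockout heart c alone). Krt76, an epithelial keratin, was at least 2.36-fold and Csta2, a cysteine protease inhibitor, at least 5.54-fold higher, with adjusted p of 0.00857 and 0.00196, both kept with the block (0.0253 and 0.0251). All 3 had no wild type signal well above background. Car2, carbonic anhydrase 2, named after its values were seen, was above background in all hearts: 0.67, 0.48 and 0.79 against -0.29, -0.42 and -0.51 (1.06 ± 0.14, adjusted p of 0.0439, and 0.104 with the block).

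Falls away from chromosome 17 were mostly of dim transcripts. Tbx15, a T-box factor of skeletal and fat progenitors, stood at -4.09, -4.42 and -3.74 against -2.60, -2.53 and -2.41 (-1.57 ± 0.20, adjusted p of 0.0375), and all 3 of its probes fell. Vmn1r90, a vomeronasal receptor, fell by 1.60, Cdh23, a cadherin of hair cells, by 1.10, Klhl1, a neuronal actin binding protein above background on 2 of 3 knockouts, by 1.20 and Tmem130 by 1.05. Slxl1 and Speer4b, both of testis families, C1ql1, a synaptic organiser, and Tnip3, an inhibitor of NF-kB, had no knockout signal well above background and were at least 1.65-fold, 1.73-fold, 1.42-fold and 2.64-fold lower. Speer4b was kept with the block (adjusted p of 0.0275) and with knockout heart c alone (0.0449). The block ended the other calls, with adjusted p of 0.0512 for C1ql1, 0.0596 for Tnip3, 0.0616 for Slxl1, 0.0662 for Tbx15, 0.0864 for Vmn1r90, Klhl1 and Tmem130, and 0.112 for Cdh23.

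No gene of the contractile or energy machinery of heart muscle was called. All 27 sarcomere genes were lower in mean, with a median change of -0.34 where the median of all genes was -0.08, but the medians were -0.50, -0.42 and -0.04 on the knockouts a, b and c, and -0.04, -0.27 and 0.29 on the wild types. Knockout heart c thus lay within the wild types. In 15 of the 27 the probe was saturated on at least 1 array, which compresses differences. Myh7, the slow myosin heavy chain, was at 5.76, 6.54 and 6.05 against 6.89, 6.61 and 7.29 (-0.81 ± 0.26, adjusted p of 0.263). Only 1 of the 27 had an unadjusted p under 0.05.

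The medians of calcium handling, ion channel and metabolic genes were likewise lowest on knockout hearts a and b. Of 21 heart ion channel genes 19 were lower, with medians of -0.60, -0.95 and -0.16 on the knockouts and -0.25, -0.05 and 0.30 on the wild types. Kcnip2, the subunit that shapes the early potassium current, was at -0.68, -0.49 and 0.14 against 0.35, 0.75 and 0.93 (-1.02 ± 0.26, adjusted p of 0.197). Of the 51 oxidative phosphorylation genes 49 were lower, with a median of -0.22 and of -0.01 on knockout heart c, and none had an unadjusted p under 0.05. In 30 of the 51 the probe was saturated on at least 1 array, which compresses differences here too. Of 18 calcium handling genes 16, of 32 fatty acid oxidation genes 29 and of 27 glycolysis genes 23 were lower, with medians of -0.41, -0.26 and -0.23, and on knockout heart c 0.02, -0.09 and -0.02.

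The medians of vessel and matrix genes were also lowest on those 2 hearts. All 17 endothelial genes were lower, 8 of them without overlap (13.7% of all genes lay so), with medians of -0.53, -0.31 and -0.08 on the knockouts and 0.01, 0.00 and -0.01 on the wild types. Tie1, a receptor of endothelium, was at 0.88, 1.17 and 1.23 against 1.60, 1.53 and 1.63 (-0.49 ± 0.14, adjusted p of 0.236). Of 36 matrix genes 31 were lower, with a median of -0.29 and of -0.03 on knockout heart c. None of these genes was called, while 4 endothelial and 7 matrix genes had an unadjusted p under 0.05. Of 16 mineralization regulators 13 were lower and 6 lay below without overlap (13.7% of all genes), with medians of -0.41, -0.31 and -0.22.

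Clock genes had a median below 0 on all 3 knockouts, lowest on heart b. Of the 19 tested 14 were lower, where 58.5% of all genes were, and 9 had all knockouts below all wild types, where 13.7% of all genes did. The medians were -0.16, -0.62 and -0.26 on the knockouts a, b and c and -0.04, -0.02 and 0.08 on the wild types. Hlf, an output factor of the clock, was at 0.12, -0.60 and -0.05 against 0.83, 0.57 and 0.56 (-0.83 ± 0.22, adjusted p of 0.209). Dbp, another, was at 5.55, 4.48 and 5.77 against 6.14, 5.95 and 6.16. Arntl, the activator of the loop, went the other way, at 0.16, 1.16 and -0.11 against -0.41, -0.26 and -0.20. None was called, while 6 had an unadjusted p under 0.05, and the hour of tissue collection is not given in the sources used here.

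Cholesterol synthesis genes were higher in 20 of 24, 9 of them without overlap (8.97% of all genes lay above so). The medians were 0.79, 0.00 and 0.23 on the knockouts, highest on heart a, and 0.17, -0.09 and -0.02 on the wild types. None was called, while 4 had an unadjusted p under 0.05, near the 16% of all genes. Among 23 immediate early genes 17 were higher, with medians of 0.05, 0.18 and 0.32. Egr3 and Atf3, transcription factors induced within minutes of a stimulus, came nearest to a call: Egr3 was at -3.55, -3.66 and -3.41 against -4.49, -4.28 and -4.59 (0.91 ± 0.15, adjusted p of 0.0673), and Atf3 at 0.37, 0.43 and 0.40 against -0.16, -0.31 and -0.28 (0.65 ± 0.12, adjusted p of 0.0970). Both were higher by a similar amount on every knockout.

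**Figure D4:**
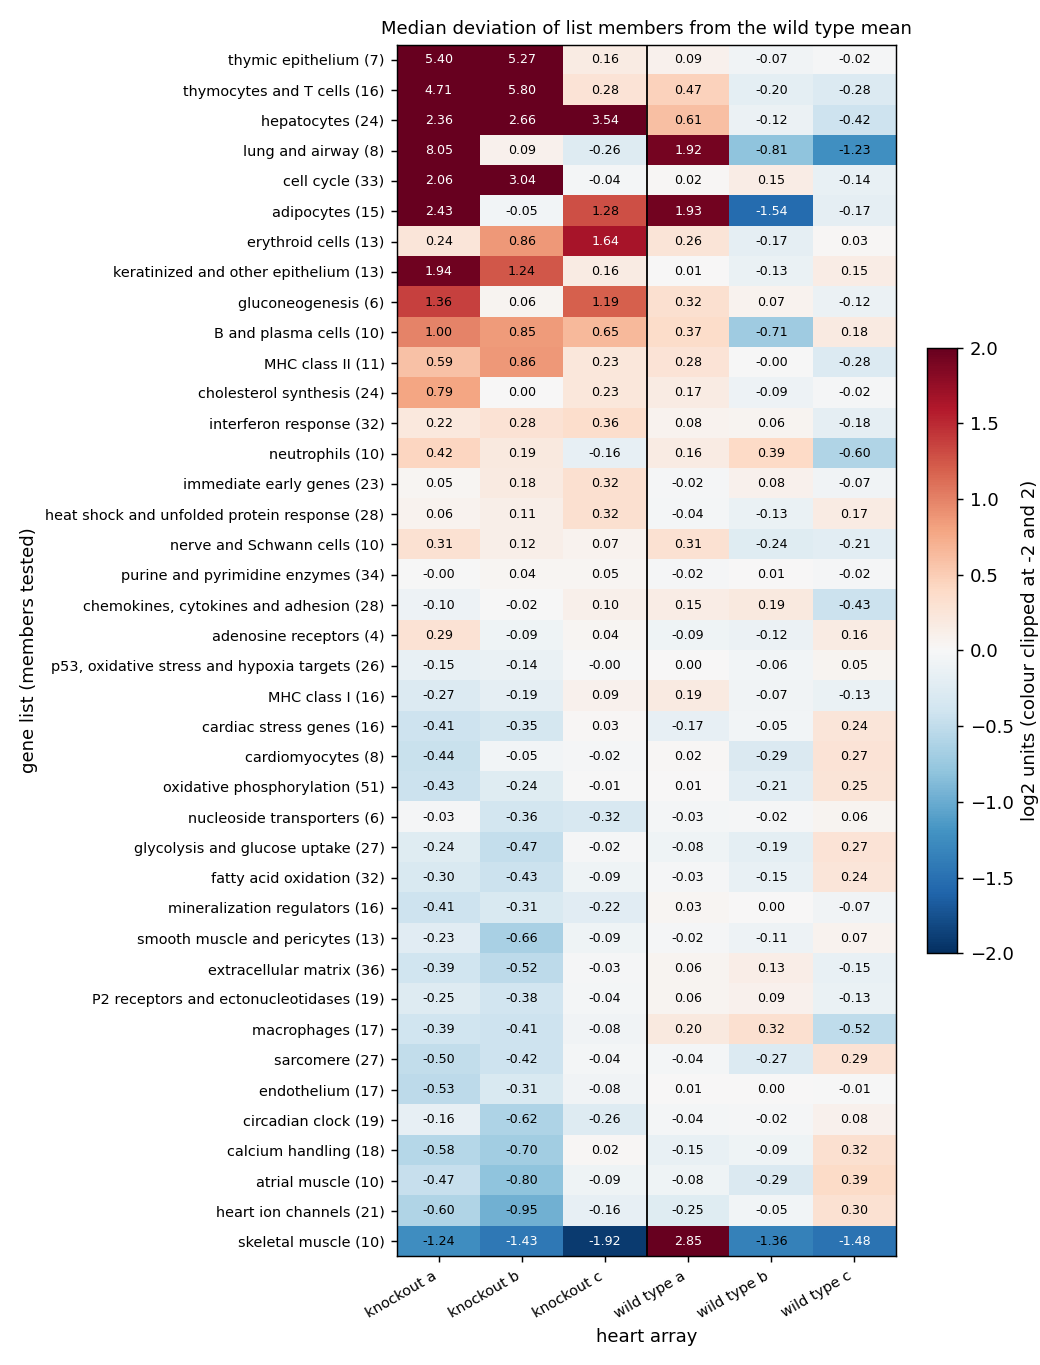
Median deviation of the tested members of each gene list from the wild type mean (log2 units, numbers and colour, colour clipped at -2 and 2), by heart array; the number of members tested follows the list name. The hepatocyte row is high on all 3 knockouts, the thymus and cell cycle rows on a and b only, and the lung row on knockout a and less on wild type a.

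Large signals of thymus genes were shared by knockout hearts a and b, and most were at or near the wild type level on c. Dntt, the DNA polymerase of immature lymphocytes, was at 5.56 and 6.59 on a and b, at -3.50 on c, and at -4.83, -5.39 and -5.21 in the wild types. Ccl25, the chemokine that draws precursors into the thymus, was at 4.29 and 5.31 on a and b and between -1.18 and -0.83 on the other 4 hearts. All 16 thymocyte and T cell genes tested lay higher, at medians of 4.71, 5.80 and 0.28 on the knockouts a, b and c, and their summed linear signal was 208, 379 and 15.3 times the 75th percentile on the knockouts against 9.89 to 18.1 on the wild types. None was called with all 6 arrays, while 14 were called without knockout heart c, where 2087 of all 17485 genes were. Foxn1, Psmb11, Rag1 and Rag2 were among the list members not tested.

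Cell cycle genes followed the thymus genes across these arrays. All 33 were higher in mean, with medians of 2.06, 3.04 and -0.04 on the knockouts a, b and c. Top2a, the topoisomerase of dividing cells, was at -0.90 and -0.08 on a and b, at -4.23 on c and between -4.52 and -3.95 in the wild types. None of the 33 was called with all arrays, with 14 at an unadjusted p under 0.05 (16% of all genes). Without knockout heart c 31 were called, where 2087 of all 17485 genes were. With c alone 15 were higher and 18 lower. Epithelial keratins moved with them: Krt8 was at 4.27, 4.34 and 1.93 against 1.21, 1.28 and 1.62. The part of thymus tissue in the cell cycle values was not tested.

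Single hearts carried signals of further tissues. For lung and airway genes the median was 8.05 on knockout heart a and 1.92 on wild type a, against 0.09 or below on the other 4. Sftpc, surfactant protein C, was at 6.36 on knockout heart a and between -7.21 and -4.01 elsewhere, and Scgb1a1, of airway club cells, at 6.20 there, at 0.26 on wild type heart a and at -2.90 or below elsewhere. Fast skeletal muscle genes had a median of 2.85 on wild type heart a and of -1.24 or below on all others. Myh1 was at 1.36 there and at -5.12 or below elsewhere. The brightest members of the list did not stand out on wild type heart a. Atp2a1 was at 3.70 there and at 4.24 and 4.55 on wild types b and c, and Ckm at 4.95 against 5.25 and 5.83. Myh4 was at 4.58 on wild type heart a, at 4.48 on knockout heart a and higher on wild type heart c. Adipocyte genes had medians of 2.43, -0.05 and 1.28 on the knockouts and of 1.93, -1.54 and -0.17 on the wild types. The groups overlapped, while within each letter the knockout was the higher. Of 15 tested 13 were higher, with a median change of 1.30, and 1 was called with the letters as a block (0.337% of all genes were). Without the block no lung gene was called, and none of the adipocyte or skeletal muscle genes was either. Of the adipocyte, lung and skeletal muscle lists 1, 0 and 0 genes had an unadjusted p under 0.05.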

How the data were processed

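In the deposited scanner files each spot has an intensity, already background-subtracted by Agilent's software. Feature Extraction is version 9.5.3.1 per the file headers and 9.1 per the submitters' processing notes, and probes are placed on build mm7 per the file headers. The deposited value table holds log2 values, centred per probe (over the hearts the median of 100% of its probes lay no farther than 0.01 from 0); it was used only to check columns against arrays, because its heart columns correlated at -0.055 to -0.271 with the arrays they are named for. Its Slc29a1 values are higher in the columns named knockout.

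The processed intensity was set to log2 and shifted to the 75th percentile of the 43379 non-control spots of each array. Spots marked non-uniform or population outliers were left out and spots of the 41174 probes averaged. Probes were named through RefSeq by accession (23075), symbol (6582) or synonym (3077), and 8440 stayed as named there. Testing required a probe to be well above background on each of the 3 arrays of a genotype, and the brightest probe stood for a gene. A fold written "at least" sets the bright group against the higher of the dim signal and the lowest signal above background. limma 3.58.1 in R 4.3.3 was fitted to the 6 hearts, with Benjamini-Hochberg adjustment over 17485 genes at 0.05.

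The members and gene lists were chosen with earlier results of these data known. The rule for naming takes Slc29a1, Myh6 and Tnnt2; among called genes with a symbol the 16 largest rises, up to 16 falls, up to 4 per direction of each list, and up to 12 each on chromosome 17 and called with knockout heart c alone; the transporters and receptors; the 2 smallest p of lists with no call; and the 3 brightest of each marker list. Some genes that the rule takes were left out of the text. Other genes were named after their values were seen, the roles of called genes among them. Same-letter hearts deviated together (correlation 0.385 for a, 0.186 for b and 0.256 for c). The alternative fit with the letters as a block therefore took the letter as pairing, from the labels' shared letters. The main fit left the letter out. The labels give 3 mice per genotype and do not tie mice to letters. In data simulated from the hearts, 23% of genes changed by 1 log2 unit and 71% of those changed by 2 were called, with 8 false among 102 calls over 17485 genes. These rates belong to the simulated data. Whether they hold for the calls on the real hearts, where slide and genotype cannot be told apart, was not tested.

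The alternatives were median scaling, quantile normalization, normexp background correction with an offset of 50, no filter and a filter on all 6 hearts, kept outlier spots, averaged probes, all 12 arrays in the fit, the letter block, each array left out, and knockout heart c alone.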

Additional observations from a re-analysis of the deposited data

Results flagged for a closer look

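For 15 of the named genes called in heart, the knockout effect in heart differed from the knockout effect in kidney, by limma on all 12 arrays with an adjusted p under 0.05. Of all 108 called genes 39 did, where 112 of 17485 genes tested did (0.641%). The heart change that chose the called genes is part of this difference, so the choice itself raises their share. The difference, heart change minus kidney change, was 5.34 for Mbl2, 4.72 for Aadac, 3.40 for Apoc3, 3.40 for Fbp1, 3.30 for C4bp, 3.22 for Bhmt2, 2.86 for Apom, 2.83 for Ces1c and 2.59 for Plg, all liver transcripts that rose in heart. Among the others it was 6.64 for Igkv1-135, 4.07 for Oas1d, 3.99 for Dnah8 and 3.66 for Krt76. Slxl1 gave -2.56 and Vmn1r90 -2.02, the falls of this set. In kidney itself Dnah8 changed by 0.51, Mbl2 by -0.75, Apom by 1.16 and Igkv1-135 by -2.91. In heart, Mbl2, Aadac, C4bp, Bhmt2, Apom, Igkv1-135, Oas1d and Krt76 were well above background on no wild type and Slxl1 on no knockout, so these differences rest on background signal on 1 side; Apoc3 was above it on 1 of 3 wild types. The heart part of each difference carries the slide, which cannot be told apart from genotype.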

How the results depend on the processing

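No called value changed sign under an alternative. Fits that left hearts out could not turn a sign, since the groups of the called genes did not overlap. The replicate block and the fit on all 12 arrays give the same change as the main fit, so they could not either. The count of 108 called genes stayed within 1.5 times with median scaling (114), quantile normalization (74), kept outlier spots (108) and averaged probes (102). It was 16 with normexp, 56 with no filter, 22 with the filter on all 6 hearts, 208 with all 12 arrays in the fit, 59 with the letters as a replicate block and 54 without knockout hearts a and b. It ranged from 15 to 2087 with 1 array left out: 15 without wild type heart b, 30 without c and 77 without a, 45 without knockout heart a, 52 without b and 2087 without c. The 2087 calls held all 108 and split into 1179 rises and 908 falls, 56.5% rises against 85.2% with all hearts. The cause of these shifts was not tested. The change of Slc29a1 of -2.08 was past the threshold with median scaling, normexp, kept outliers, averaged probes and all 12 arrays. It was not past it with quantile normalization (-2.02, adjusted p of 0.0518 in limma), no filter (-2.08, 0.0914), the filter on all 6 hearts (-2.08, 0.0612), the replicate block (-2.08, 0.0684) and without knockout hearts a and b (-1.71, 0.0607). With 1 array left out it ranged from -2.27 to -1.79, with adjusted p from 0.00917 to 0.200. Of the 43 other named calls 43 were kept with median scaling, 31 with quantile normalization, 8 with normexp, 23 with no filter, 30 with all 12 arrays and 15 with the replicate block. With knockout heart c alone 8 of 41 list medians turned sign, that of cell cycle from 1.67 to -0.04 and that of lung and airway from 2.60 to -0.26 among them. The slide as a block was not run, since each genotype lay on 1 slide of its own. Dim signals limit the folds of 36 rises and 6 falls to bounds, and saturation hides differences among the brightest muscle genes.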
